A study of Mus musculus with 10 samples.

Results

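The transcripts described here are those of the NF-kB transcription factor subunits, of their inhibitors and of the kB-binding zinc finger protein Hivep1, in a mouse model of T-ALL, an acute leukemia of T cell precursors, with and without calcineurin. They were found as the probe sets that the platform annotation pairs with exactly 1 of 10 gene symbols. These were 18 of the 45101 probe sets on the array, each a group of short probes for 1 transcript, and they read 9 of 18193 genes: Nfkb2, Rel, Rela, Relb, Nfkbia, Nfkbie, Nfkbiz, Tnfaip3 and Hivep1. Nfkb1 had no probe set listed to it alone and was not analysed here. The leukemias were induced with ICN1, an activated NOTCH1. All of them, in both groups, carried a tamoxifen-inducible Cre transgene (ROSCreERT2) and 2 floxed copies of CnB1, the gene of the regulatory subunit of calcineurin (current symbol Ppp3r1). Leukemic secondary recipient mice received tamoxifen, which deletes CnB1 (TAM, 5 arrays), or corn oil alone, which leaves it in place (OIL, 5 arrays). Leukemic cells of the bone marrow were sorted by a fluorescent marker before RNA extraction. Each group held the replicate labels 204, 206, F3, F3.1 and F3.2. Tamoxifen as a drug and the loss of CnB1 cannot be told apart in this design, and the ages of the mice are not given in the labels.

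NF-kB factors are dimers of 5 related subunits that bind kB sequences in DNA. In resting T cells most dimers are held in the cytoplasm by inhibitors of the IkB family, and signals from the antigen receptor or from receptors of the TNF family lead to the degradation of these inhibitors. In the classical pathway dimers of Rela or Rel with the Nfkb1 product enter the nucleus. In the alternative pathway the Nfkb2 precursor is processed and its product enters with Relb. Several genes of the system are themselves NF-kB targets, so that subunits and inhibitors form feedback loops. Calcineurin is best known for activating NFAT factors, which share with Rel proteins a related DNA-binding domain.

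The promoters of the members are shown because kB sequences in them are the textbook basis of that feedback. Of the 10 member symbols, 7 were found in the RefSeq promoter table (GRCm38.p6). The 250 bases upstream of the first listed start of each gene were searched on both strands for the kB consensus, a motif of 10 letters, and for GGAAA, the core of NFAT sites. The kB consensus was present in 6 of the 7 (Nfkb2, Rel, Nfkbia, Nfkbie, Tnfaip3 and Hivep1, but not Rela), against 7.0% of 27025 promoters. GGAAA was present in 4 of the 7, against 55.6% of all promoters, and kB matches can contain it. The last 130 bases before the start of the 6 genes are given 5′ to 3′ on the strand of the gene, with kB matches in capitals. A match is a description of the sequence and does not show binding.
Nfkb2, chr19:46304607-46304736, plus strand: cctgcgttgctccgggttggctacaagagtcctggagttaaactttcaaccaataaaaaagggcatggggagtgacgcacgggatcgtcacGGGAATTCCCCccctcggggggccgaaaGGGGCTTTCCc
Rel, chr11:23770970-23771099, minus strand: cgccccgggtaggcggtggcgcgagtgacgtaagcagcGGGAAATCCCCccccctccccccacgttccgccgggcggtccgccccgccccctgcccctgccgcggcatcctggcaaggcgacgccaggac
Nfkbia, chr12:55492648-55492777, minus strand: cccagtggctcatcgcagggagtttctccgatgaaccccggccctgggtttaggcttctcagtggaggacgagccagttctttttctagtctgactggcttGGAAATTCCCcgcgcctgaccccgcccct
Nfkbie, chr17:45555570-45555699, plus strand: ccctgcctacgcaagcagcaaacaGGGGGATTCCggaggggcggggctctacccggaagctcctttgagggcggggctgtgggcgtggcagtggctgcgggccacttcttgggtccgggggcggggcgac
Tnfaip3, chr10:19015411-19015540, minus strand: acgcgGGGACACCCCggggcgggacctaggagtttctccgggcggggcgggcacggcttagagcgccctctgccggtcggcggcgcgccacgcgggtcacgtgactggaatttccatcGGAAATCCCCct
Hivep1, chr13:42051891-42052020, plus strand: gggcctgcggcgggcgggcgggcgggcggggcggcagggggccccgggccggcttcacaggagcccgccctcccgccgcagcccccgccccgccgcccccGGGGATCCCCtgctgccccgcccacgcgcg
The Nfkb2 window held 3 matches, of which a pair overlapped, and Rel held an overlapping pair. In Hivep1 the match was a palindrome, GGGGATCCCC, at positions -30 to -21 from the start.

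The arrays were even in level, with medians between 5.07 and 5.13 log2 units, and their number, 5 per group, limits the precision. The OIL arrays of labels F3.1 and F3.2 were nearly alike across all probe sets (r = 0.997), so calls are also given with this pair averaged. The r of other pairs is not given here. At single members these 2 arrays were close (Rela, 9.38 and 9.42) or further apart (Nfkbiz, 6.75 and 6.38). The labels do not state whether arrays are separate mice, or whether F3, F3.1 and F3.2 come from the same leukemia. The p-values thus reflect the spread of these samples, which may be technical. For Ppp3r1 itself there were 2 probe sets. The dimmer one averaged 5.32 ± 0.58 over OIL and 3.26 ± 0.21 over TAM arrays (SD, n = 5), lower in all 5 label pairs, and the brighter one was 9.80 ± 0.09 and 9.67 ± 0.04. Over all arrays the dimmer one averaged 4.29, below the limit of 4.59 under which genes were left out. It was called among all probe sets (limma adjusted p = 0.0161), and the brighter one was not (0.553). Whether either lies in the deleted exons was not examined. T cell markers were bright (mean log2 level of 11 markers 10.38 to 10.95 in OIL and 10.33 to 10.76 in TAM). They did not all move one way: Cd2 differed by -0.999 (10.94 ± 0.41 in OIL, 9.95 ± 0.28 in TAM; limma adjusted p = 0.0588, and 0.0271 with the replicate label as a block) and Cd8a by 0.56 (0.748 without the block).

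The TAM arrays held more Relb and more Hivep1 transcript on average than the OIL arrays. Neither gene was called when OIL F3.1 or OIL F3.2 was left out, or when this pair was averaged. Few genes of any kind were called in these fits, 8, 10 and 10, against 60 with all arrays. Of 10 fits that left out an array, Relb kept its call in 8 and Hivep1 in 3. Between 8 and 54 of all genes were called in those fits. In limma, 2 of the 9 tested member genes rose and 0 fell at an adjusted p under 0.05, which bounds the expected share of false calls among the genes called. Of the 12735 genes tested, 0.298% were called higher and 0.173% lower. The members were chosen with earlier results of these data known, so the shares of all genes given here describe the members and do not test them. Without adjustment 5 of 9 had a p under 0.05, against 13% of all genes. All 9 genes had a higher mean in TAM, although 41% of all genes did, and the median difference was 0.28 log2 units for the members and -0.03 for all genes tested. The same held for 18 of 18 probe sets, several of which read the same gene. This direction is not firm for Rela and Nfkbia, which turned with array weights (Rela) or with 1 array left out. The 5 TAM arrays lay above the 5 OIL arrays without overlap at 5 of 18 probe sets, namely those of Relb and Hivep1, both of Nfkbie and 1 of Nfkb2, against 0.83% of all probe sets. At the level of genes 3 of 9 did so (Relb, Nfkbie and Hivep1), against 1.27% of all genes, and 4 of 9 were higher in all 5 label pairs, against 8.4%. With the replicate label as a block, which compares TAM with OIL within labels, the same 2 genes were called, where 1.65% of all genes were called higher. The label pairs and the block rest on a pairing that was weakest for F3.1 and F3.2. Among single probe sets, adjusted over all of them, Relb alone was called (0.04% called higher), and Hivep1 as well with the block (0.706%).

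**Figure D1:**
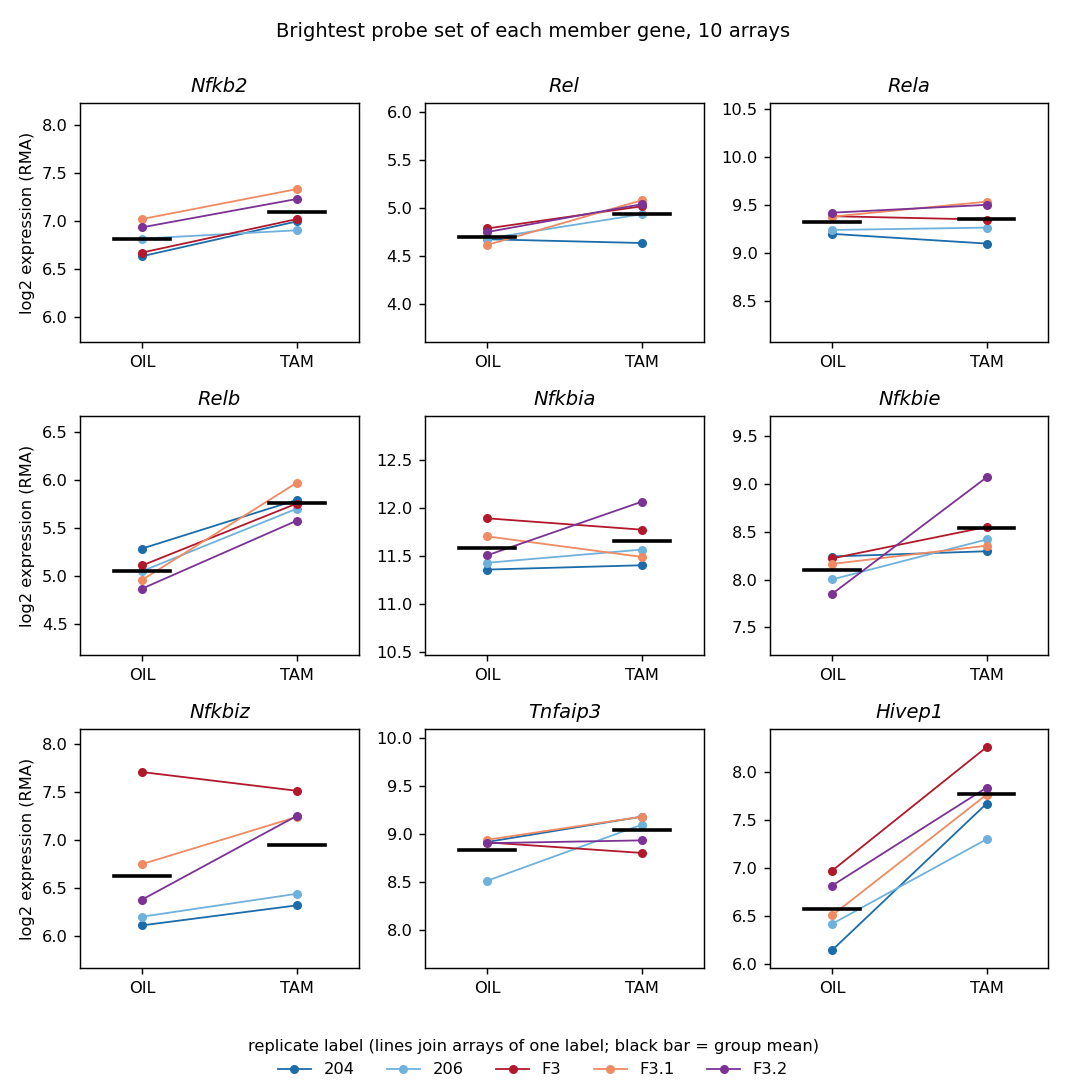
Log2 expression (y axis, RMA units) of the brightest probe set of each of the 9 member genes in the OIL and TAM groups (x axis), 5 arrays each. Coloured lines join arrays with the same replicate label and black bars are group means; all panels span 2.5 log2 units. In Relb and Hivep1 all 5 lines go up and the groups do not overlap, whereas the lines of Nfkbia cross.

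Among the subunits, Relb, the partner of the processed Nfkb2 product in the alternative pathway, showed the smallest spread relative to its change. Its single probe set read 5.28 (204), 5.05 (206), 5.11 (F3), 4.96 (F3.1) and 4.87 (F3.2) log2 units in OIL. In TAM it read 5.79, 5.70, 5.75, 5.97 and 5.57 for the same labels. The highest OIL array thus lay below the lowest TAM array, and the order of the labels was not kept: F3.1 was among the low arrays in OIL and the highest in TAM. The OIL arrays averaged 5.05 ± 0.16 and the TAM arrays 5.76 ± 0.14 (SD, n = 5). Relb thus rose 1.63-fold, by 0.71 ± 0.10 on the log2 scale (SE), with an adjusted p of 0.0159 in limma. The differences within label pairs ran from 0.51 (204) to 1.01 (F3.1). The two-sided exact permutation p was 0.00794, the smallest that 5 against 5 arrays can give. Relb was a dim transcript, near the array medians and above the limit of 4.59 under which genes were left out.

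Relb kept its call in 17 of 20 alternative settings, and its difference stayed between 0.65 and 0.76. In limma the adjusted p was 0.0696 when the OIL array F3.1 was left out and 0.0509 when F3.2 was. It was 0.0589 when both were averaged into 1 sample.

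Nfkb2 encodes the precursor that both retains Relb in the cytoplasm and yields its DNA-binding partner. Its probe sets gave differences of unequal size. The brighter one is of a type that can share probes with other transcripts. It read 6.63, 6.82, 6.67, 7.02 and 6.94 in OIL and 6.997, 6.90, 7.02, 7.33 and 7.23 in TAM (labels 204, 206, F3, F3.1 and F3.2, as in all lists below). Each label was higher in TAM but the groups overlapped, and the difference of 0.28 ± 0.11 did not pass (limma adjusted p = 0.294, and 0.0617 with the block). It was 0.17 with array weights. The dimmer probe set read 6.74, 6.90, 6.70, 6.36 and 6.38 in OIL and 7.12, 7.09, 7.45, 7.54 and 6.98 in TAM. Here the groups did not overlap, with a difference of 0.62 ± 0.14 (limma adjusted p = 0.164 over all probe sets, exact permutation p = 0.00794, the smallest possible). The gain was largest in F3.1 (1.18) and smallest in 206 (0.20). The mean of both probe sets differed by 0.45 (adjusted p = 0.0780). When the OIL array of F3.1 or of F3.2 was left out, or both were averaged, this probe set had the higher mean and stood for the gene. Nfkb2 then differed by 0.56 and was not called (limma adjusted p = 0.250, 0.244 and 0.248).

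Rel, the subunit induced on T cell activation, was close to the dim limit. It read 4.68, 4.68, 4.79, 4.62 and 4.75 in OIL and 4.64, 4.94, 5.02, 5.08 and 5.04 in TAM. TAM 204 lay within the OIL range, while TAM 206 and the TAM arrays of the F3 labels exceeded every OIL array. The difference of 0.24 ± 0.09 did not pass (limma adjusted p = 0.285). Rela, the main transactivating subunit of the classical pathway, averaged 9.33 ± 0.10 over the OIL and 9.35 ± 0.18 over the TAM arrays (SD, n = 5). Its label pairs differed by -0.10 to 0.16, and the mean difference of 0.025 ± 0.093 was smaller than its error (limma adjusted p = 0.946).

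**Figure D2:**
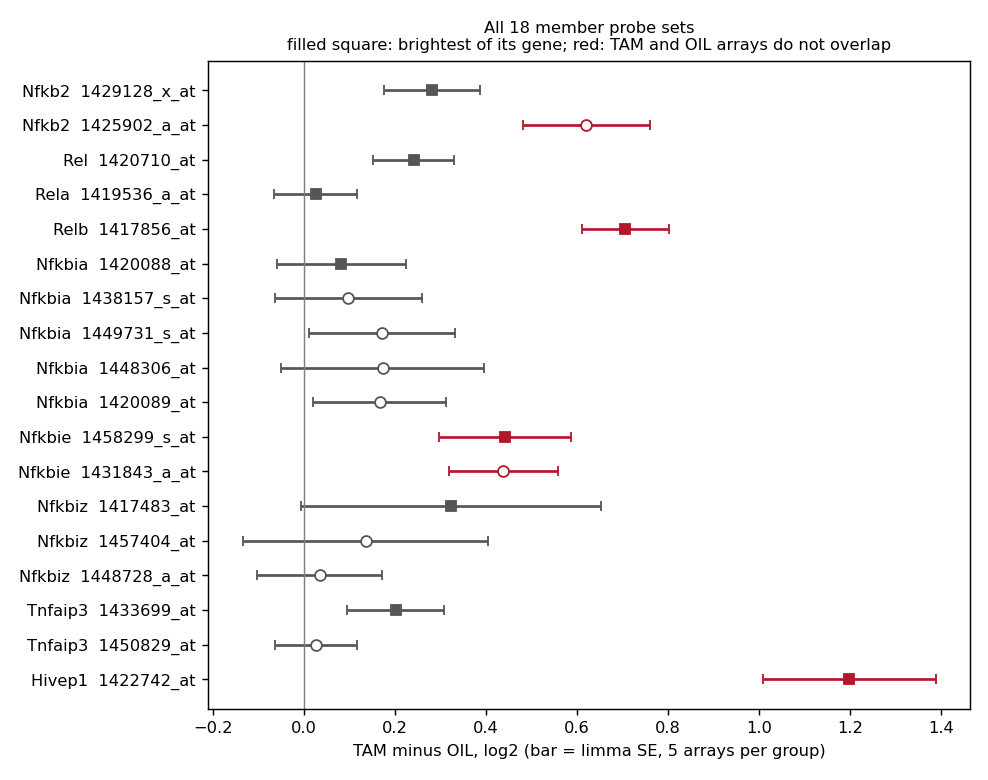
TAM minus OIL difference in log2 units (x axis) for the 18 member probe sets (y axis, gene and probe set); bars are limma standard errors from 5 arrays per group. Filled squares mark the brightest probe set of a gene and red marks those whose TAM and OIL arrays do not overlap. Both Nfkbie probe sets sit at 0.44, the Nfkbia probe sets lie between 0.08 and 0.17, and Hivep1 is farthest right at 1.20.

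Of the inhibitors, Nfkbie (IkB epsilon), a cytoplasmic IkB, was the one whose groups did not overlap, and its probe sets gave nearly equal differences. The brighter one read 8.24, 8.001, 8.22, 8.16 and 7.85 in OIL and 8.30, 8.42, 8.55, 8.35 and 9.07 in TAM. The separation was narrow, since TAM 204 exceeded OIL 204, the highest OIL array, by 0.055. F3.2 was the lowest array in OIL and the highest in TAM, so that this label alone gave a difference of 1.22. The arrays of this label matched each other least of all the label pairs (correlation of deviations from the group means 0.18). The mean difference was 0.44 ± 0.15 and did not pass (limma adjusted p = 0.236), nor did it with the block (0.164). The dimmer probe set differed by 0.44 ± 0.12 (adjusted p = 0.256 over all probe sets), also with 1.04 in F3.2 and 0.0034 in 204. Without TAM F3.2 the difference of the brighter probe set was 0.31.

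Nfkbia (IkB alpha), the inhibitor that NF-kB reinduces most rapidly, was read by 5 probe sets, with differences of 0.08 to 0.17 and limma adjusted p-values of 0.767 to 0.895 over all probe sets. The brightest read 11.36, 11.43, 11.89, 11.70 and 11.50 in OIL and 11.40, 11.56, 11.77, 11.49 and 12.06 in TAM. The label pairs disagreed in the same way at every one of the 5 probe sets: 204, 206 and F3.2 were higher in TAM and F3 and F3.1 were lower. F3.2 differed by 0.56 to 0.77, and F3.1 by -0.31 to -0.13, but the pairing of these labels was the weakest. These probe sets read 1 transcript in the same arrays and are not independent.

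Nfkbiz (IkB zeta), a nuclear IkB that acts as a cofactor of selected NF-kB targets, varied most among the inhibitors, with a range of 1.60 log2 units over the arrays. Its brightest probe set read 6.11, 6.20, 7.71, 6.75 and 6.38 in OIL and 6.32, 6.44, 7.51, 7.24 and 7.25 in TAM. The array of label F3 was the highest of its group in OIL and in TAM, and those of 204 and 206 were the lowest. The difference between the groups, 0.32 ± 0.33, was within its error (limma adjusted p = 0.739), and the other probe sets differed by 0.14 and 0.034. It was 0.59 without OIL F3, 0.18 without TAM F3, 0.19 without OIL 204 and 0.16 as the mean of its probe sets. Tnfaip3, a ubiquitin-editing enzyme that ends NF-kB signalling, differed by 0.20 ± 0.11 at its brighter probe set (8.84 ± 0.18 in OIL, 9.04 ± 0.17 in TAM, limma adjusted p = 0.478) and by 0.026 ± 0.090 at the dimmer one. At the brighter one OIL 206, at 8.51, stood apart from the other OIL arrays, which lay between 8.90 and 8.94. Without it the difference was 0.12, and as the mean of both probe sets 0.11.

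Hivep1, a large zinc finger protein that binds kB sequences and is not a Rel family member, had the largest change of the members and ranked 41 of the 12735 genes by rise. It read 6.14, 6.42, 6.97, 6.50 and 6.81 in OIL and 7.67, 7.30, 8.26, 7.76 and 7.84 in TAM. Every TAM array exceeded every OIL array, and F3 was the highest label in both groups. The OIL arrays averaged 6.57 ± 0.33 and the TAM arrays 7.77 ± 0.35 (SD, n = 5). Hivep1 thus rose 2.29-fold, by 1.20 ± 0.19 on the log2 scale (SE), with an adjusted p of 0.0324 in limma. Within label pairs it differed by 0.88 (206) to 1.53 (204). The mean differences were 1.21 in labels 204 and 206 and 1.19 in the F3 labels.

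The size of the Hivep1 difference stayed between 1.07 and 1.32 in 21 alternative settings, and its call held in 12 of them. Of 10 fits that left out an array, 3 kept the call (those without OIL F3, TAM 206 or TAM F3), and the largest adjusted p was 0.105, without OIL F3.1. The calls without OIL 204 (0.0706), OIL 206 (0.0579), OIL F3.2 (0.0733), TAM 204 (0.0604), TAM F3.1 (0.0872) and TAM F3.2 (0.0619) were also lost. The adjusted p was 0.0607 over all probe sets without a filter and 0.0880 with OIL F3.1 and OIL F3.2 averaged. With the label as a block it was 0.00488.

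**Figure D3:**
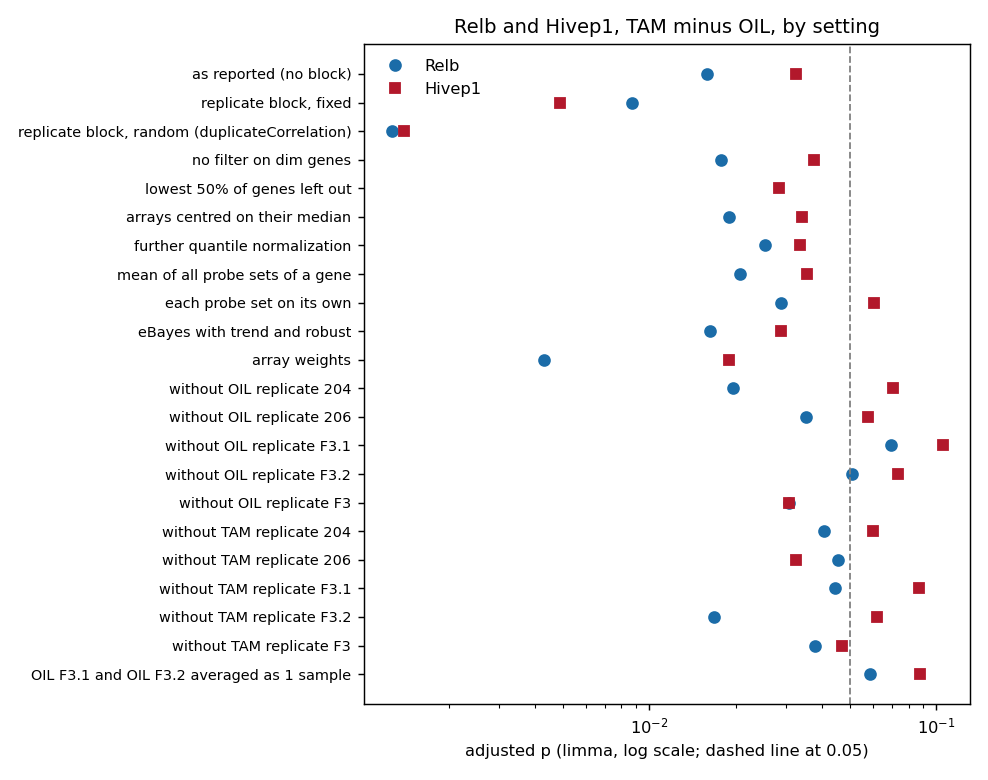
Adjusted p of limma (x axis, log scale) for the TAM minus OIL difference of Relb (blue circles) and Hivep1 (red squares) in the reported fit and each alternative (y axis); the dashed line marks 0.05. The values are lowest with the label as a random block and highest without OIL F3.1 (0.0696 and 0.105). Relb has no value where the lowest 50% of genes were left out, and the points coincide without OIL F3.

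The paralogs Hivep2 and Hivep3 belong to the same zinc finger family. Hivep3 averaged 11.39 ± 0.44 over the OIL and 12.35 ± 0.33 over the TAM arrays (SD, n = 5), higher in 5 of 5 pairs by 0.96 on average. It was called with the label as a block (limma adjusted p = 0.00683) and not without it (0.0986), and its 4 other probe sets differed by -0.17 to 1.02. Hivep2 differed by 0.28 (adjusted p = 0.591), and by 0.60 at its other probe set.

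Across the replicate labels, the arrays labelled F3, F3.1 and F3.2 (6 arrays) were compared with those labelled 204 and 206 (4 arrays). Treatment was a term and the label a random block. If the F3 labels share a leukemia, the 6 arrays are not independent of each other. None of the 9 members was called (limma), 3 had an unadjusted p under 0.05, and 6.56% of all genes were called and 21.5% had such a p. Nfkbiz showed the largest difference, 7.14 ± 0.49 in the F3 labels against 6.27 ± 0.14 in 204 and 206 (SD over 6 and 4 arrays), higher by 0.87 ± 0.24 (SE, adjusted p = 0.0566). At its other probe sets the difference was 0.49 and 0.19, and as the mean of all 3 it was 0.52 (adjusted p = 0.151). The families overlapped, since OIL F3.2 lay below TAM 206. The next differences were those of Hivep1 (0.48 ± 0.15, adjusted p = 0.0937), Nfkbia (0.30 ± 0.14, 0.256) and Rela (0.23 ± 0.08, 0.116). The 4 other Nfkbia probe sets differed by -0.15 to 0.25 between the families, and the mean of all 5 by 0.12. Nfkbiz was called without OIL F3 (0.71, adjusted p = 0.0126) and without OIL F3.2 (0.999, adjusted p = 0.0365). It was not called when any other array was left out (limma adjusted p = 0.0599 to 0.144). Of all genes, 1464 were called without OIL F3 and 402 without OIL F3.2, against 835 with all arrays. Relb differed by -0.08 between the families, less than its error of 0.11.

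Whether the response to tamoxifen differed between the label families was tested as an interaction. It was called in 0 of 9 members and in 0 of 12735 genes (limma), with 0 members and 5.61% of all genes at an unadjusted p under 0.05. Relb differed by 0.58 in 204 and 206 and by 0.79 in the F3 labels. The brighter Tnfaip3 probe set differed by 0.42 and 0.05 (interaction adjusted p = 0.842). The dimmer Nfkb2 probe set differed by 0.29 and 0.84 (interaction adjusted p = 0.978 over all probe sets, 0.025 unadjusted in limma).

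The genes most like each member over the 10 arrays were taken as those with the smallest root mean square distance between profiles centred on their means, for Hivep1 and for members that ranged over 1 log2 unit. Those nearest to Hivep1 were Cdyl2 (distance 0.20), Irf4 (0.23) and Ddn (0.26), all in log2 units, against a range of 2.12 for Hivep1 itself. For Relb they were Ier2 (0.13), Mtbp (0.14) and Lrrc8c (0.15). For Nfkbie they were Dennd4b (0.11), Angptl1 (0.12) and Tasor (0.12), and for Nfkbiz Mllt11 (0.22), Gga3 (0.23) and Slc37a3 (0.24). No other member was among these genes. Only the 3 nearest of all tested genes were taken for each, so this does not show whether the members vary together.

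Of 117 further genes of NF-kB signalling, 93 were tested. None was called without the block (limma), where 0.471% of all genes were called in either direction, and 13 of the 93 had an unadjusted p under 0.05, a share close to the 13% of all genes. With the block 2 rose, Hivep3 and the costimulatory receptor Cd28 (0.56, from 9.64 ± 0.26 to 10.21 ± 0.27, limma adjusted p = 0.0348, and 0.156 without it), and 0 fell, against 3.38% of all genes called in either direction and 1.74% lower. With the label as a random block 4 rose (Hivep3, Cd28, Irf1 and Cd69) and 3 fell (Ikbkg, Stat5a and Icam1), where 2.39% of all genes were called higher and 3.32% lower. Their median difference was 0.0060 log2 units, with 47 of 93 higher in TAM. The other IkB family genes had 4 tested members and differed by -0.0024 (Nfkbil1) to 0.61 (Bcl3, a nuclear IkB and partner of the processed subunits, higher in 5 of 5 pairs, limma adjusted p = 0.241).

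Upstream, the IKK complex and its kinases had a median of -0.02 over 11 tested genes. The lowest was Ikbkg, the regulatory subunit of IKK, at -0.51 (limma adjusted p = 0.111, and 0.0294 with the label as a random block), with -0.08 to 0.11 at its 5 other probe sets. The adaptors and ubiquitin ligases (12 genes, median 0.031) ran from -0.30 (Traf6) to 0.21 (Traf2), and the further negative regulators (13 genes, median -0.09) from -0.44 (Pdlim2) to 0.09 (Otulin). Receptors of the TNF and IL-1 families (13 genes) had a median of -0.09 and their ligands (9 genes) one of -0.10.

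Downstream, the 26 tested NF-kB target genes were evenly split, 13 higher and 13 lower, with a median of 0.0018. None was called without a block or with the label as a fixed block (limma). With a random block 4 were: the interferon regulatory factor Irf1 (0.36, limma adjusted p = 0.0325) and the activation marker Cd69 (0.75, 0.0391) rose, and the signalling factor Stat5a (-0.31, 0.0294) and the adhesion molecule Icam1 (-0.33, 0.0461) fell. The unadjusted p was under 0.05 for 5 of the 26 without and 8 with the fixed block, where 22.4% of all genes had such a p with the block. They ran from -1.13 for the adhesion receptor Cd44, whose OIL arrays had an SD of 1.87, to 0.91 for Gadd45b, a stress response gene (limma adjusted p = 0.697 and 0.428). Cd44 was higher in TAM in 0 of 5 label pairs (limma adjusted p = 0.164 with the fixed block). Between the label families it was higher in the F3 labels by 2.80 (limma adjusted p = 0.0302).

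**Figure D4:**
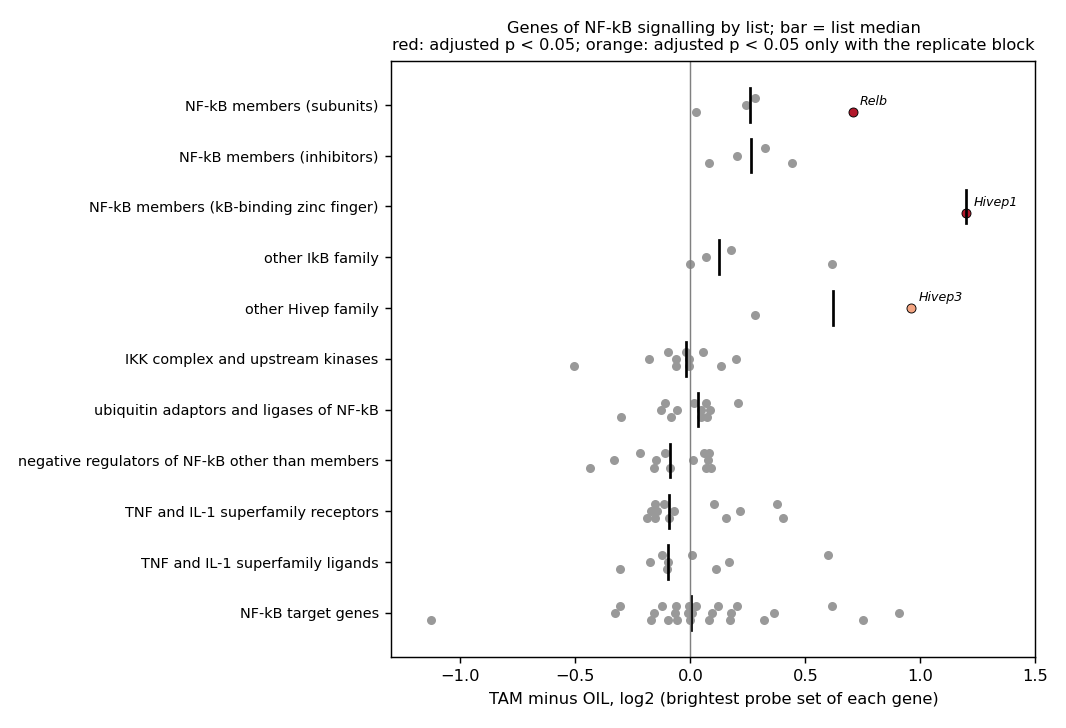
TAM minus OIL difference in log2 units (x axis) of each tested gene in the lists described (y axis); black bars are list medians. Red points were called (Relb and Hivep1) and the orange point only with the replicate block (Hivep3). The member lists lie to the right of 0, while the target genes run from -1.13 to 0.91.

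Markers of other marrow cells were followed because NF-kB genes are active in myeloid cells. The mean log2 level of 13 myeloid markers was 4.79 to 5.98 in OIL and 5.24 to 6.46 in TAM (exact permutation p = 0.365), and 3 of the 13 (Itgam, Cd14 and Mpo) were below the dim limit. Of the 10 tested, 7 were higher in TAM. Neither limma fit called any of them, and the unadjusted p was under 0.05 for 0 without the block and for 2 with it. Between the label families 6 of the 10 had an unadjusted p under 0.05 and 0 were called (limma), where 21.5% of all genes had such a p. The list was highest in the F3 arrays of both groups (5.98 and 6.46), as Nfkbiz was, and averaged 5.79 in the F3 labels and 5.17 in 204 and 206. Its part in the Nfkbiz values was not tested. In bulk RNA, fewer cells of a type and less RNA per cell cannot be told apart. The mean of 8 B cell markers, of which 5 were below the limit, was lower in TAM without overlap (4.39 to 4.59 in OIL, 4.26 to 4.38 in TAM, exact permutation p = 0.00794, the smallest possible). None of the 3 tested was called (limma, 0 at an unadjusted p under 0.05), and the part of this shift in the results was not tested. The mean levels of erythroid, NK cell, dendritic cell and stromal markers differed by -0.07, 0.03, -0.01 and 0.06 (exact permutation p = 0.238, 0.754, 0.730 and 0.667).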

How the data were processed

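The deposited values are on the log2 scale. Per the submitters' processing notes, the authors used RMA, of a version not given here. RMA subtracts background, equalizes the arrays by quantiles and summarises probe sets, which removes shifts common to all genes before deposit. Probe sets were named by the platform annotation, and 34945 of 45037 that are not controls had 1 symbol. For each of 18193 genes the probe set of highest mean was used, and the lowest 30% of genes were left out (limit 4.59), which left 12735. All 18 member probe sets lay above the limit. The groups were compared with limma 3.58.1 in R 4.3.3 (lmFit, eBayes, Benjamini-Hochberg over all genes, calls under 0.05) without a block; single probe sets were adjusted over all 45037. The fits were tested on simulated data. Without the block, 37.8% of changes of 0.5 log2 units and 85.6% of changes of 1 were recovered. With the fixed block these shares were 58.2% and 93.5%. A change of 0.5 was thus often missed. The simulated noise was independent and did not model the likeness of OIL F3.1 and OIL F3.2.

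Label pairs were checked by the correlation of deviations from the group means over genes: 0.76 (204), 0.75 (206), 0.80 (F3), 0.58 (F3.1) and 0.18 (F3.2). The labels F3.1 and F3.2 drop a final number that differs between the groups, and their pairing is the weakest: 3 of their 4 arrays were closer to an array of a different label in the other group.

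Alternatives covered the block, filter, scaling, probe set rule, variance model, array weights and left-out arrays. The members, lists and tests were chosen with earlier results of these data known. All members and Ppp3r1 are named, as are pathway and marker genes called with or without a block, the lowest and highest genes of some lists and the myeloid markers below the dim limit. The values of 1 pathway list are not reported here. Promoter sequences come from RefSeq.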

Additional observations from a re-analysis of the deposited data

Results flagged for a closer look

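Of 36 groups of 5 arrays (18 probe sets in OIL and in TAM), 4 held an array whose gap to its neighbour was over 0.71 of the group's range, where chance gives about 1 in 20. OIL 206 was low for Tnfaip3 at its brighter probe set (8.51, gap 0.92 of the range). OIL F3 (6.01) and TAM F3 (6.22) were high for Nfkbiz at its dimmest probe set (0.77 and 0.73), and both arrays share a label. TAM F3.1 was low for Nfkbia at the second dimmest of its probe sets (8.73, 0.72).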

How the results depend on the processing

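The count of 2 called members (Relb and Hivep1) was also 2 with a replicate block (fixed or random), without a filter, with both rescalings, with the mean of all probe sets, with trend and robust and with array weights. It was 1 when the lowest 50% of genes were left out, which removed Relb, 1 with each probe set on its own, 0 with OIL F3.1 and OIL F3.2 averaged, and 0 to 2 when 1 array was left out. Of all genes, 60 were called in the reported fit, 431 with the fixed block and 728 with the random block. With OIL F3.1 and OIL F3.2 averaged 10 were called, and 8 to 54 when 1 array was left out. Of single probe sets 1 was called, and 2 with the replicate block, where 33 and 584 of all probe sets were. Between label families 0 members were called, 2 (Nfkbiz and Hivep1) without a block on the label, and 0 to 1 when 1 array was left out. Of all genes, 835 were called, 1507 without this block and 402 to 1464 when 1 array was left out. The interaction was called in 0 members in each alternative run.

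Of 187 alternative values of the members' TAM minus OIL differences, 170 kept their direction and side of the threshold, 12 lost the call and 5 changed sign. These were uncalled: Rela with array weights (-0.027) and when 1 array was left out (-0.021 to 0.088, with -0.013 without TAM F3.2 and -0.0062 without OIL 204), and Nfkbia when 1 array was left out (-0.020 to 0.16). No member was called when OIL F3.1 or OIL F3.2 was left out, where 8 and 10 of all genes were. These arrays were nearly alike across all probe sets. The replicate block changed no member's call at the level of genes. Rel and Relb were the tested members closest to the dim limit.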
